A study of Homo sapiens with 3 samples.

Results

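Peaks of YBX1-bound RNA were examined over 8 genes of glycolysis, namely HK2, ALDOA, TPI1, GAPDH, PGK1, ENO1, PKM and LDHA. The members are the rows of the deposited peak list that overlap the hg19 span of any of these genes by 1 base or more. There were 13 such peaks among the 17802 of the list (0.0730%), on 6 of the 8 genes. The cells were T24, an established human bladder carcinoma line, and per the labels' protocols they overexpressed Flag-tagged YBX1. The 3 groups, with 1 sample each, were the input RNA taken from the lysate, the RNA captured on anti-Flag beads (YBX1 RIP), and the captured RNA after bisulfite treatment, which leaves m5C readable as cytosine. All 3 carry the same overexpressed protein, and a capture from cells without the Flag tag is not among them. For the bisulfite sample the source label reads T25 while the strain label reads T24.

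Glycolysis splits glucose into pyruvate in the cytosol and yields ATP and NADH, and lactate dehydrogenase returns the NADH to NAD+ by reducing pyruvate to lactate. Carcinoma cells often run this pathway fast even with oxygen at hand, and its enzyme mRNAs are among the abundant messages of many cultured lines. YBX1 is a cold-shock-domain protein that coats mRNA in the cytoplasm and can recognise m5C in it.

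Each peak of the list is a pair of positions on a chromosome, with no height, strand, gene name or methylation call. Read depth per peak is unknown, there is no replicate, and none of the values below can be tested against a spread between cultures. The values describe where peaks were called. They do not give how strongly an RNA was bound or which peak carries m5C. Since no expression value is in the list, an RNA without a peak cannot be told apart from one that was scarce in these cells, and the T24 label could not be checked against marker genes. Coordinates are those of the list, and width is the distance from a peak's start to its end. A span runs from the first to the last base of a gene, introns included, so that a place along it is not a place along the spliced mRNA.

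ENO1 carried the most peaks, 5, and GAPDH had the largest share of its span under peaks, 46.3%. PKM, ALDOA and GAPDH had 2 peaks each, TPI1 and HK2 had 1 each, and PGK1 and LDHA had none. On all 6 genes with peaks, every peak had its midpoint past 50% of the span, on the side of the 3′ end. On 5 of them a peak lay over the 3′ end of the gene or within 100 bp of it, and on none of the 8 did a peak cover the start site.

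**Figure D1:**
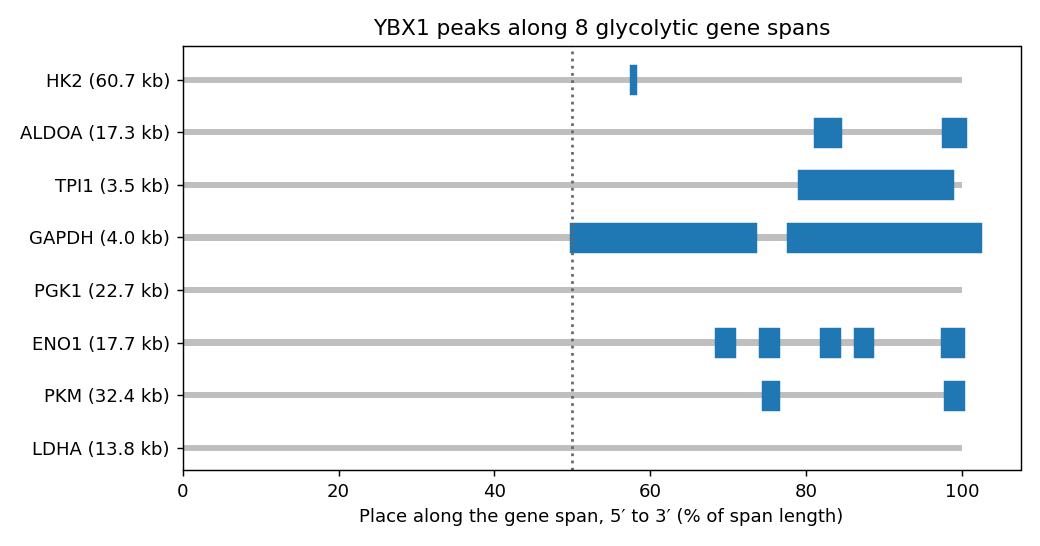
Each grey line is a gene span from its 5′ end (0%) to its 3′ end (100%), listed in the order of the pathway with the span length in kb, and each blue block is a YBX1 peak drawn to scale. All 13 blocks have their midpoint to the right of the dotted line at 50%, and PGK1 and LDHA have no block.

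The upper part of the pathway is taken in the order of its reactions. HK2, hexokinase 2, phosphorylates glucose in the first step and is the isoform typical of insulin-sensitive tissue and of many tumours. Its span (chr2:75059782-75120486, plus strand) is the longest of the 8 at 60.7 kb and held a single peak, chr2:75094633-75095097, of 464 bp. This peak covered 0.766% of the span. It lay 34.9 kb after the start and 25.4 kb before the 3′ end, the only one of the 6 genes with peaks whose 3′ end was more than 100 bp from its nearest peak. Cut into consecutive windows of the length of HK2, the nuclear chromosomes had a peak in 10.8% of windows, the highest background for any of the 8 lengths. Among the windows that touched a peak, 77.6% had at least as many bases under peaks as HK2.

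ALDOA, aldolase A, cleaves fructose 1,6-bisphosphate into triose phosphates. Within its span of 17.3 kb (chr16:30064411-30081741, plus strand) lay the peaks chr16:30078447-30079049, of 602 bp, and chr16:30081290-30081829, of 539 bp. The second ran 88 bp past the 3′ end, and the first began 3.29 kb before it. The first 14036 bp of the span, 81.0% of its length, were free of peaks. In the RefSeq table (GRCh38.p14), another coding gene, LOC112694756, overlaps ALDOA, and ALDOA itself is much shorter than the span used here. The place of a peak along the span, the peak-free part, the covered share and the window background therefore depend on the start that is chosen, while the distance to the 3′ end does not. Peaks covered 6.09% of the span. A peak was present in 4.99% of windows of this length, and 37.0% of those had at least as many bases under peaks.

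TPI1, triosephosphate isomerase, interconverts the products of aldolase. Its span is the shortest, 3.53 kb (chr12:6976584-6980110, plus strand), and its peak, chr12:6979367-6980069, was 702 bp wide. The peak ended 41 bp short of the 3′ end and left the first 2.78 kb uncovered. It took up 19.9% of the span. Only 1.85% of windows of this length touched a peak, and of these 33.0% had at least as many bases covered. SPSB2 overlaps TPI1 in the RefSeq table, and without strand in the list the peak cannot be assigned to either gene by strand.

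The lower part of the pathway, which yields ATP, held the genes with the most peak bases and also a gene without any. GAPDH, glyceraldehyde-3-phosphate dehydrogenase, oxidises its substrate and makes NADH. It also binds RNA in its own right and is a common reference message. Its span of 3.95 kb (chr12:6643585-6647537, plus strand) carried the widest peaks of the set, chr12:6645550-6646490 of 940 bp and chr12:6646650-6647630 of 980 bp. They were separated by 160 bp, and the second ran 93 bp past the 3′ end. Together they covered 1829 bases of the span, or 23.5% of all bases under peaks on the 8 genes. The first 1.97 kb, 49.7% of the length, were free of peaks. Windows of this length touched a peak in 1.99% of cases, with a median of 12.4% of their bases covered, and 6.32% of the touched windows had as many covered bases as GAPDH.

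PGK1, phosphoglycerate kinase 1, makes the first ATP of the pathway and is encoded on the X chromosome. No peak overlapped its span of 22.7 kb (chrX:77359666-77382324, plus strand), where 5.88% of windows of the same length touched a peak. The nearest peaks ended 115 kb upstream and began 2550 kb downstream, so that the gene sat in a peak-free stretch of 2.69 Mb. Of the 17777 gaps between neighbouring peaks in the list, 265 (1.49%) were at least this long. This share counts gaps and not bases. Long gaps hold more of the genome than their number shows, so the stretch cannot be read as rare for a gene.

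ENO1, enolase 1, forms phosphoenolpyruvate, and a shorter product from the same gene, MBP-1, is a repressor of MYC transcription. Its span of 17.7 kb (chr1:8921059-8938780, minus strand) held a series of 5 peaks. In the direction of transcription they were chr1:8926215-8926681, chr1:8925215-8925673, chr1:8923836-8924285, chr1:8923095-8923529 and chr1:8921018-8921534. Their widths were 466, 458, 449, 434 and 516 bp, the widest being the one that ran 41 bp past the 3′ end. The gaps between them were 542, 930, 307 and 1561 bp. All lay within the last 5.62 kb, and the first 12.1 kb, 68.3% of the span, had no peak. Peaks covered 12.9% of the span. A peak was present in 5.04% of windows of this length, 15.6% of those touched had at least as many bases under peaks, and 9.78% had 5 or more peaks. The RefSeq table places a microRNA gene, MIR6728, inside ENO1, and none of the peaks was assigned to it.

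PKM, pyruvate kinase M, makes the last ATP and is spliced into the PKM1 and PKM2 forms through mutually exclusive exons. On its span of 32.4 kb (chr15:72491370-72523727, minus strand) lay the peaks chr15:72498994-72499700, of 706 bp, and chr15:72491308-72492121, of 813 bp. The wider one ran 62 bp past the 3′ end. The other began 8.33 kb before that end, and 6873 bp without a peak lay between them. The exons that differ between the 2 forms were not mapped here. Peaks covered 4.51% of the span and left its first 24.0 kb uncovered. Of windows of the same length, 7.29% touched a peak, and 33.2% of the touched ones had at least as many bases under peaks.

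LDHA, lactate dehydrogenase A, lies after the pathway proper and turns pyruvate into lactate. Its span of 13.8 kb (chr11:18415936-18429765, plus strand) held no peak, against 4.33% of windows of this length with one. The nearest peaks were 1005 kb upstream and 1305 kb downstream. The peak-free stretch of 2.32 Mb also takes in the genes beside LDHA, and 324 of the 17777 gaps in the list (1.82%) were at least as long. As for PGK1, this is a share of gaps and not of bases.

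**Figure D2:**
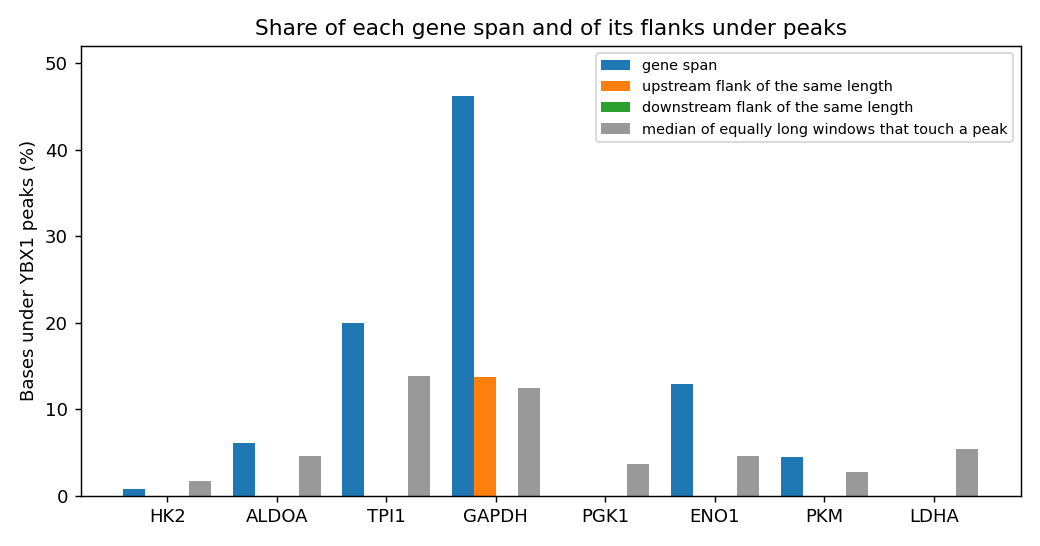
Bars give the percent of bases under YBX1 peaks for each gene span (blue), its upstream (orange) and downstream (green) flank of the same length, and the median of equally long windows that touch a peak (grey). GAPDH stands highest at 46.3%, and HK2 lies below its grey bar at 0.766%. Flank bars leave out peaks on the gene itself, and the only flank with another peak is the one upstream of GAPDH.

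The background given by windows counts untranscribed sequence as well as genes, and the windows were not matched for RNA level or exon content. It is therefore not a background for expressed genes, and the 6 of 8 genes with peaks cannot be read as more or fewer than among other expressed genes. Covered bases did not follow span length. GAPDH and TPI1, the shortest spans, had 1829 and 703 bases under peaks, and HK2, the longest, had 465. The highest count, 2287, was that of ENO1, and PKM had 1459 and ALDOA 1055. Over all 8 genes 7.80 kb of 172 kb were covered, or 4.53%.

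On 5 of the 6 genes with peaks, all but HK2, a peak lay at the 3′ end. The peak nearest the 3′ end crossed it by 93 bp on GAPDH, 88 bp on ALDOA, 62 bp on PKM and 41 bp on ENO1, and stopped 41 bp before it on TPI1. These 5 terminal peaks began between 0.451 kb (ALDOA) and 0.887 kb (GAPDH) before the end. They were 516 to 980 bp wide, with a median of 702 bp, and the other 8 peaks 434 to 940 bp, with a median of 465 bp. The other 8 take in every ENO1 peak but the terminal one, at 434 to 466 bp, and the HK2 peak, at 464 bp. Their median thus rests mostly on ENO1. The first peaks of GAPDH, PKM and ALDOA, also among the 8, were 940, 706 and 602 bp wide. The ranges overlap, with the first peaks of GAPDH, PKM and ALDOA all wider than the terminal peaks of ENO1 and ALDOA. Within ENO1, PKM and GAPDH the terminal peak was the widest of its gene, and within ALDOA it was the narrower of the pair. The place of peaks was not compared with other genes, for which no span on this build was at hand. Of the 13 midpoints, 11 lay past 66.7% of the span, the exceptions being the HK2 peak at 57.8% and the first GAPDH peak at 61.6% of the way.

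**Figure D3:**
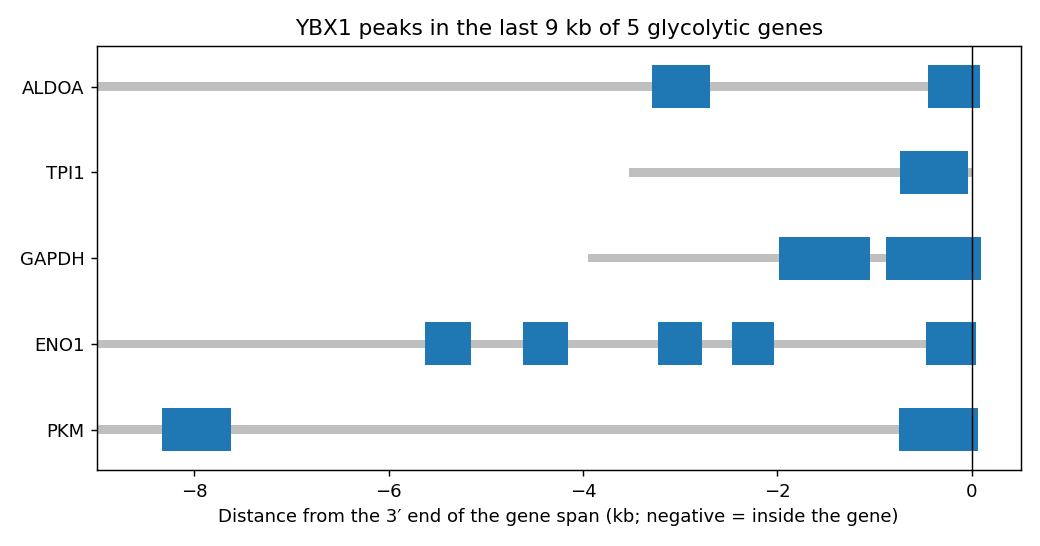
Grey lines are the last 9 kb of ALDOA, ENO1 and PKM and the whole spans of TPI1 and GAPDH, aligned at the 3′ end (0 on the axis, in kb), and blue blocks are YBX1 peaks to scale. A block crosses the line at 0 in ALDOA, GAPDH, ENO1 and PKM and ends 41 bp before it in TPI1.

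The 13 peak widths on these genes ran from 434 to 980 bp with a median of 539 bp, against a median of 470 bp and quartiles of 424 and 631 bp for all peaks. Of the 13, 8 were wider than the median of the list, a width exceeded by 49.9% of all peaks, 5 were above the upper quartile and none was below the lower one. These 5 were both peaks of GAPDH and of PKM and the peak of TPI1. None of the 13 reached 1000 bp, which 9.80% of all peaks did. The GAPDH peaks were wider than 88.8% and 89.8% of the list, and the ENO1 peaks other than the terminal one were wider than 30.8% to 47.9%. The median of the set thus depended on which gene was counted. It was 704 bp without the 5 peaks of ENO1 and 516 bp without GAPDH. Peaks on one gene may come from the same transcripts and cannot be counted as independent, so no test was made of these widths.

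**Figure D4:**
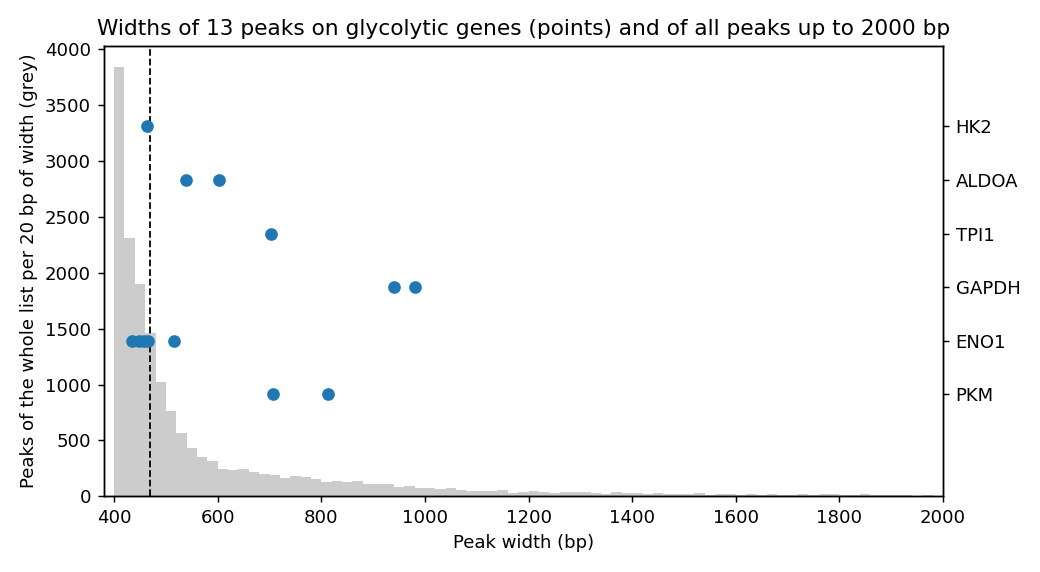
Blue points are the widths in bp of the 13 peaks, 1 row per gene, over a histogram in grey of all peaks of the list up to 2000 bp in bins of 20 bp. The dashed line marks the median of the list, 470 bp, with the HK2 peak and 4 ENO1 peaks at or left of it and both GAPDH peaks far to its right.

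In flanks as long as the span itself, 1 of 16 sides had a peak that was not on the gene. Peaks of GAPDH, ALDOA, PKM and ENO1 that ran past the 3′ end into the downstream flank were left out. This share is to be read beside the 1.85% to 10.8% of windows of these lengths that touch a peak anywhere. The windows leave out no peak, so the 2 measures differ. Flanks without another peak therefore cannot be read as particular to these genes. Of the flanking bases 0.157% were under peaks not on the gene, and with flanks of 50 kb it was 1.29%, or 0.0836% without GAPDH. The side with such a peak was upstream of GAPDH, where the peak chr12:6640533-6641074 ended 2511 bp before the start site. It was the peak nearest to any of the spans without overlapping one. Within 50 kb of their spans 6 of the 8 genes had no peak other than their own. No share of windows was computed for this length. Only 10.8% of windows of the length of HK2, which is longer, touched a peak, so this count cannot be read as particular to these genes either. ALDOA had 1, which began 43.7 kb past its 3′ end, while GAPDH had 11 upstream and 5 downstream. The RefSeq table lists GAPDH-DT and NCAPD2 as the next genes upstream of GAPDH and IFFO1 downstream, and the flanking peaks were not assigned to them. Outside peaks were farther from HK2 (157 kb upstream), ENO1 (158 kb downstream), PKM (80.7 kb downstream) and TPI1 (56.7 kb downstream).

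Another peak lay within 5 kb of 9 of the 13 peaks (69.2%), against 68.0% in the whole list, a share near the background. The 5 peaks of ENO1 formed a run of their own and the pair on ALDOA another, and the GAPDH pair ended a run of 11 peaks that began upstream of the gene. The peaks of PKM, TPI1 and HK2 had no neighbour within this distance.

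**Figure D5:**
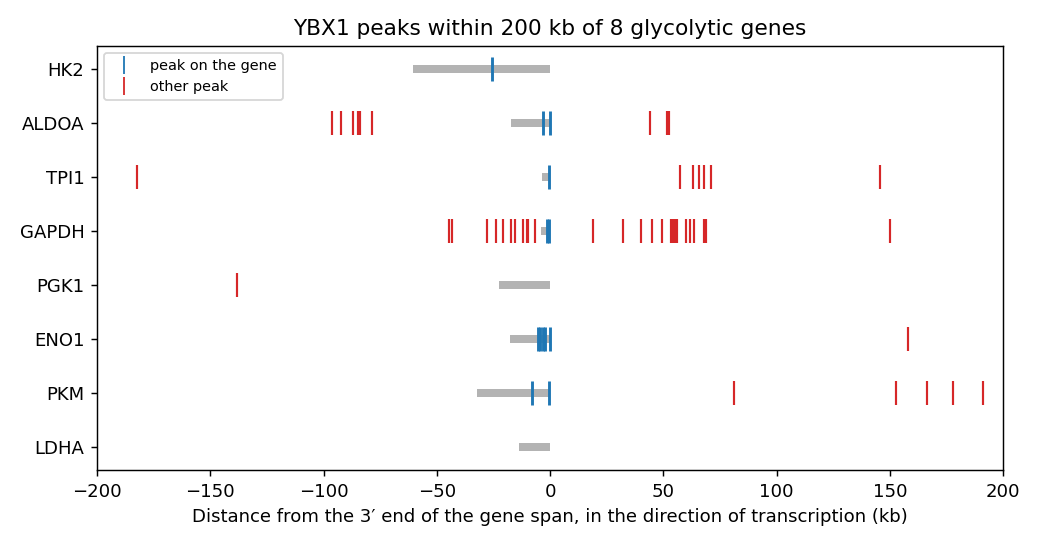
Each row is 1 gene with its span in grey, drawn in the direction of transcription with its 3′ end at 0 kb, and ticks mark peak midpoints within 200 kb (blue on the gene, red elsewhere). LDHA has no tick at all, PGK1 has red ticks only, and GAPDH is the one gene with other peaks close on both sides.

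Copies of these genes elsewhere in the genome bear on how reads are placed. By symbol, the RefSeq table lists 65 pseudogenes of GAPDH, 6 of LDHA, 5 of PKM, 4 each of ENO1 and TPI1, 2 each of ALDOA and PGK1, and 1 of HK2. The sources used here do not say whether reads that match several places were kept. The gene with by far the most copies, GAPDH, had the highest covered share, and the genes without peaks had 6 (LDHA) and 2 (PGK1). The part of such copies in the presence or absence of a peak was not tested.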

How the data were processed

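RNA bound to Flag-tagged YBX1 in T24 cells was sequenced, and the values used here are the genome positions of 1 deposited list of peaks. Trimmomatic, MACS2 and build hg19 are named in the submitters' processing notes, while the sources used here do not give the aligner, the peak threshold, the libraries compared or any later filter. The hg19 gene spans came with the choice of members, without a named annotation release. Members and lists were chosen with earlier results of these data known. All 8 genes and every overlapping peak were named, by rule. Further genes of the pathway were not placed, and the planned comparison with coding length was not made, because no annotation of this build or protein table was at hand. Strand, neighbours and pseudogene symbols came from RefSeq tables (GRCh38.p14), in which all 8 symbols matched, and no coordinate was converted. Peaks overlapping a span by 1 base counted. Background windows ran in consecutive steps up to the last peak of each nuclear chromosome. The overlap functions were tested on simulated data. Alternatives concerned overlap, span edges, merging, width, single genes and flank length. Python 3.11.15, numpy 2.4.6, pandas 2.3.3 and matplotlib 3.10.9 were used.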

Additional observations from a re-analysis of the deposited data

How the results depend on the processing

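Of 26 alternatives, 19 gave a value within 1.5 times (counts) or inside the 95% binomial interval (shares and medians) of the reported one. The other 7 moved beyond these limits. A different set of 7, which overlaps with these only in part, was chosen after seeing the data. It held the alternatives that leave out a single gene, apart from HK2 for widths and places. It also held the place past 66.7% in place of 50% of the span. The count of 13 peaks on 6 genes was the same with the midpoint or at least 50% of the peak required inside the span. It was also the same with the span extended by 1 kb and with peaks less than 100 bp apart merged. None of these settings could have changed it. Peaks ran at most 93 bp past a span, the nearest outside peak was 2511 bp away, and the smallest gap beside a member was 160 bp. With narrower peaks than 500 bp left out, 8 peaks remained on 5 genes, by construction. The covered share of the spans was 4.30% with spans extended by 1 kb, 3.21% with peaks of at least 500 bp and 6.58% without HK2. The share of flanks under peaks not on the gene was 1.29% with 50 kb on each side and 0.0836% without GAPDH at that length. With flanks as long as the span it was 0% without GAPDH. These bases are not independent, so the intervals of the shares of bases are narrow. The 13 peaks cannot be counted as independent either, and the intervals taken from them are wide. They ran from 458 to 813 bp for the median width and from 77.2% to 100% for the place. A value inside them, such as 704 bp without ENO1 against 539 bp, can still differ much from the reported one. A comparison by peak strength was not run, since strengths are not in the list. No paired analysis was possible because there is a single sample per group. How deep sequencing would have to be to detect a bound RNA cannot be given.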
